A study of Mus musculus with 6 samples.

Results

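The antioxidant and NRF2 target enzymes examined here were Nqo1, Hmox1, Gclc, Gclm, Txnrd1, Srxn1, Cat, Sod1, Sod2 and Sod3, a set of 10 genes out of 12394 with a probe set of their own on the array. Every probe set annotated to exactly 1 of these symbols was taken, which gave 21 of 22690 probe sets. Cells remove superoxide with superoxide dismutases, which turn it into hydrogen peroxide, and remove the peroxide with catalase, glutathione peroxidases and peroxiredoxins. NRF2, encoded by Nfe2l2, is the transcription factor that raises many of these defences. KEAP1 keeps it short-lived in unstressed cells, and BACH1 competes with it at its binding sites. In white adipose tissue (WAT), oxidants arise from mitochondria, from peroxisomes and from NADPH oxidases, among them that of resident macrophages.

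RNA of epididymal WAT was compared between mice after timed sleep restriction (TSR) and control mice. The TSR group had been kept awake by gentle handling for the first 6 h of the light phase on 5 consecutive days and was killed on the last of them, and the control group had been left undisturbed. All mice were wild-type male C57BL/6 animals of 9 to 11 weeks, and tissue of both groups was collected at ZT18, in the dark phase. Each group had 3 arrays. No source used here says whether an array held 1 animal or a pool, and the p-values below speak of the spread between arrays, which may be technical. According to the labels tissue was snap-frozen and RNA extracted with Trizol, whereas the methods of the study give RNAlater and a lipid tissue kit.

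Values are MAS5 signals, which summarise the probes of a probe set on a linear scale and were scaled to a common trimmed mean on each array (500.2). Median signals lay between 127 and 141. Some markers of other cell types moved between the groups on the same arrays. Among hepatocyte markers 16 were tested, of which 15 rose and 1, Cyp2e1, fell on the deposited scale, though Cyp2e1 did not pass after quantile normalization. In 25 of the 26 that were measured, no control array reached the lowest TSR array. Without Cyp2e1, which carried most of the signal of the list in control arrays, the other 25 summed to 16105 to 16779.9 in TSR arrays and 804 to 861 in control arrays, and none was at 0. With it the sums were 27066 to 30769 in TSR arrays and 15758 to 19602 in control arrays. Of these 26 markers, 0 lay below the 25th percentile on all TSR arrays and 7 did so on all control arrays. The albumin gene Alb had a signal of 3205 ± 143 after TSR and 129 ± 31.6 in control (SD, n = 3 each). Of 16 tested macrophage markers, 14 were lower and 0 higher after TSR, with a summed signal of 27225 to 29352 in TSR arrays and 40454 to 42217 in control arrays. Of 11 tested fibroblast and progenitor markers 8 were lower and 1, Pi16, was higher (log2 fold change 2.21). Of 12 tested adipocyte markers 5 were higher and 5 lower, or 5 and 0 after quantile normalization and 3 and 5 with median centring. Fabp4, the brightest adipocyte marker, stood at 16823 ± 1405 after TSR and 22601 ± 2006 in control, a fall that did not pass after quantile normalization. The further lists had 3 higher and 5 lower of 10 (endothelial), 1 and 4 of 8 (smooth muscle and pericyte), 1 and 2 of 6 (mesothelial), 0 and 3 of 4 (neutrophil), 1 and 2 of 4 (lymphocyte), 0 and 0 of 2 (erythroid), and 1 higher of 1 (epididymal epithelium). For beta-actin, probes near the 5′ end read lower than probes near the 3′ end by a log2 difference of -0.67 ± 0.0013 after TSR and -1.22 ± 0.012 in control (SD, n = 3 each). The shift of this difference, TSR minus control, was 0.55 for beta-actin, 0.66 for Gapdh, 0.33 for pyruvate carboxylase, 1.70 for the transferrin receptor and -0.075 for 18S rRNA. Arrays differed most for the transferrin receptor, at -2.30 ± 1.18 after TSR and -3.99 ± 0.94 in control (SD). The part of these shifts in the values below was not tested. Fewer cells of a type and less RNA per cell cannot be told apart in RNA of whole tissue.

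After TSR the extracellular superoxide dismutase gene Sod3 and the heme oxygenase gene Hmox1 rose. Nqo1, an NAD(P)H quinone reductase gene, fell. Sod1, the gene of the cytosolic copper-zinc superoxide dismutase, fell by its bright probe set only. Of the 21 probe sets 18 passed the filter on low signals and were tested with limma, with Benjamini-Hochberg adjustment over all 14707 tested probe sets. At an adjusted p of 0.05, 6 of these 18 were higher and 4 lower after TSR. The dimmer Sod3 probe set, among the 6, passed the filter only through its TSR signals. Among all tested probe sets, 25.6% were higher and 21.0% lower, so the 33.3% and 22.2% of the antioxidant probe sets lay near the share found across the array. Calls in either direction made up 46.6% of the array. The groups did not overlap in 12 of the 18, or 66.7%, against 56.6% of all tested probe sets. The median log2 fold change was 0.16 over the 18 probe sets and 0.035 over all tested. Directions are those of the deposited scaling. Centring each array on its median moved the median of all tested probe sets by -0.11 on the log2 scale and gave 2452 higher and 4363 lower probe sets on the whole array, against 3768 higher and 3082 lower without it.

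**Figure D1:**
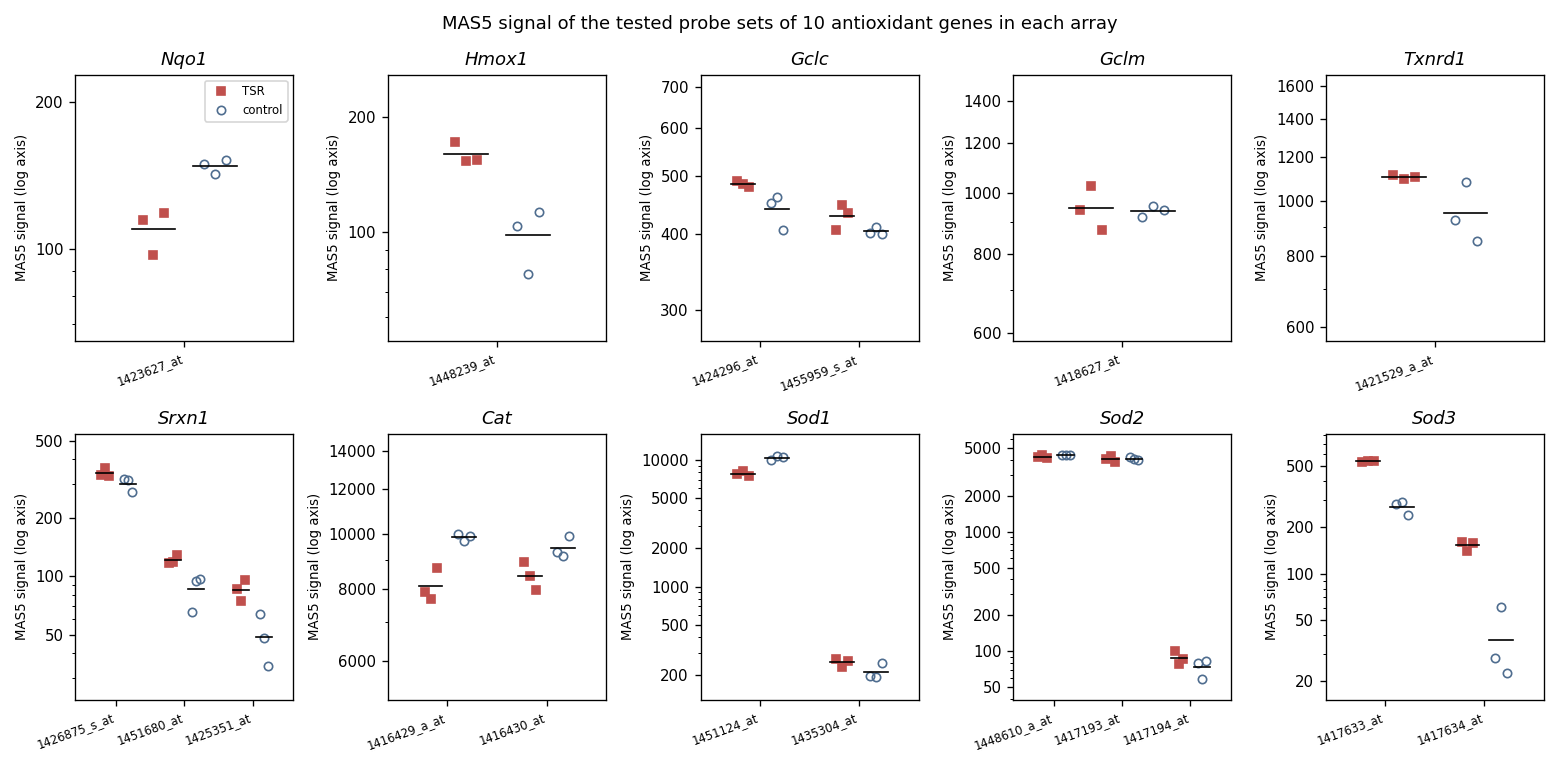
MAS5 signal (log axis, a scale of its own in each panel) of the 18 tested probe sets of the 10 genes in 3 TSR arrays (filled squares) and 3 control arrays (open circles), with lines at the group means. The groups lay furthest apart in Sod3, where the TSR arrays sat between 534 and 546 and the control arrays between 241 and 292 by the brighter probe set.

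Sod3 encodes the superoxide dismutase that cells secrete and that binds to the extracellular matrix. By the brighter of its probe sets (1417633_at) the signals were 534, 546 and 539 in TSR arrays, against 282, 292 and 241 in control arrays. All TSR signals lay above all control signals, and they were close to each other. The means were 539.7 ± 6.02 after TSR and 272 ± 27.5 in control (SD, n = 3 each), a ratio of 1.99. The log2 fold change was 0.99 with a standard error of 0.082 (limma, adjusted p = 2.6e-05). The other Sod3 probe set (1417634_at) had signals of 161, 140.0 and 159 in TSR arrays, against 28.1, 60.2 and 22.6 in control arrays. Here too the groups did not overlap, and control replicate 2 was well above the other two control arrays. The ratio of the means was 4.15 and the log2 fold change 2.18 with a standard error of 0.32 (limma, adjusted p = 0.00066). This probe set passed the filter, which uses the mean over all 6 arrays, only through its TSR signals. The control signals of 28.1 and 22.6 lay close to the 25th percentile of the arrays (20.8 to 25.2), so the size of the ratio is uncertain. Leaving out single arrays gave log2 fold changes between 0.91 and 1.05 by the brighter probe set and between 1.90 and 2.60 by the other. At least 2-fold rises that passed the test were found in 2.21% of all tested probe sets, and of the 18 only 1417634_at was among them, while falls of that size were found in 1.21% of the array and in 0 of the 18. The 2 probe sets changed by unequal amounts, with a within-array log2 difference of 1.82 ± 0.13 after TSR and 3.01 ± 0.63 in control (two-sided exact permutation test, p = 0.1, which is the lowest value possible with 3 arrays a group).

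Sod1 fell by its bright probe set. That probe set (1451124_at) had signals of 7741, 8249.6 and 7438.5 in TSR arrays, against 10037, 10783 and 10575 in control arrays. Every TSR array was below every control array. The means were 7809.6 ± 409.9 after TSR and 10465 ± 385 in control (SD, n = 3 each), a ratio of 0.746, with a log2 fold change of -0.42 and a standard error of 0.055 (limma, adjusted p = 0.00032). After quantile normalization, which gives all arrays the same distribution of signals, the fall was smaller and still passed, at -0.17 (adjusted p = 0.0047). A dim second probe set of Sod1 (1435304_at) had signals of 270.0, 231 and 259.9 in TSR arrays, against 195, 192 and 247 in control arrays, and the groups overlapped. Its log2 fold change was 0.27, with a 95% confidence interval of 0.0054 to 0.54, and did not pass after adjustment (limma, adjusted p = 0.088). Without control replicate 3 it was 0.39 and passed (adjusted p = 0.017). The within-array log2 difference of the bright minus the dim probe set was 4.95 ± 0.18 after TSR and 5.64 ± 0.20 in control (SD, n = 3 each), with no overlap (two-sided exact permutation test, p = 0.1). The 2 probe sets of Sod1 thus did not move alike, and which parts of the transcripts they match was not examined.

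Sod2, the gene of the mitochondrial manganese superoxide dismutase, did not pass by any of its 3 probe sets. By 1448610_a_at the signals were 4273, 4392 and 4165 in TSR arrays, against 4370.4, 4381 and 4438 in control arrays, with an interval of the log2 fold change from -0.13 to 0.053 (adjusted p = 0.46). By 1417193_at they were 4089, 4286 and 3824 in TSR arrays, against 4204, 4053 and 3971 in control arrays, with an interval from -0.12 to 0.11 (adjusted p = 0.95). Both intervals exclude a change of the size found for the bright Sod1 probe set. The dim 1417194_at had 100.1, 78.0 and 86.5 in TSR arrays, against 80.1, 59.1 and 83.9 in control arrays, and its interval was wide, from -0.15 to 0.66. By the brightest probe set of each gene, the log2 fold change of Sod3 exceeded that of Sod1 by 1.42 and that of Sod2 by 1.03, and the difference of Sod1 minus Sod2 was -0.38. The within-array differences did not overlap between groups for Sod3 minus Sod2 and for Sod1 minus Sod2 (two-sided exact permutation test, p = 0.1, in each case). For Sod3 minus Sod1 they could not overlap, since all TSR arrays were higher for Sod3 and lower for Sod1. The order of Sod1 and Sod2 held for these probe sets only, since the dim Sod1 probe set (0.27) lay above all 3 of Sod2 (-0.040, -0.0046 and 0.25), and that difference was not tested.

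Cat encodes catalase, the peroxisomal enzyme that splits hydrogen peroxide. It was lower after TSR by both probe sets on the deposited scale, but after quantile normalization neither passed and the second had the opposite sign. By 1416429_a_at the signals were 7899, 7684 and 8706 in TSR arrays, against 10003, 9734 and 9913 in control arrays. The means were 8096 ± 539 after TSR and 9883 ± 137 in control (SD, n = 3 each), a ratio of 0.819, and the log2 fold change was -0.29 with a standard error of 0.056 (limma, adjusted p = 0.0028). After quantile normalization it was -0.042 (adjusted p = 0.67). By 1416430_at the signals were 8937, 8449.6 and 7972 in TSR arrays, against 9319, 9137 and 9927 in control arrays, again without overlap. The log2 fold change was -0.16 (adjusted p = 0.044), and 0.091 after quantile normalization (adjusted p = 0.25). Its call was also lost in the methods' t-test on linear (adjusted p = 0.11) and log2 signals (0.11), without the variance trend (0.092), without a filter (0.081), and without TSR replicate 2 (adjusted p = 0.086), TSR replicate 3 (0.12), control replicate 1 (0.092) or control replicate 3 (0.14).

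Falls of bright probe sets were found across the whole array. The tested probe sets were put in 20 bins of equal size by their mean log2 signal. In the brightest bin of 736 probe sets, which holds both Cat probe sets, the bright Sod1 probe set and 1448610_a_at of Sod2, 64.3% were lower and 9.51% higher after TSR, and the median log2 fold change was -0.24. The first Cat probe set (-0.29) and the second (-0.16) lay on either side of this median, and Sod1 (-0.42) lay below it. After quantile normalization the median of the bin was -0.038 and 29.9% of it was lower. In the bin of the brighter Sod3 probe set the median was 0.099, with 34.0% higher, and in the bin that holds Hmox1 and Nqo1 it was 0.084, with 23.8% higher and 13.3% lower. What the falls of bright probe sets came from was not tested.

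**Figure D2:**
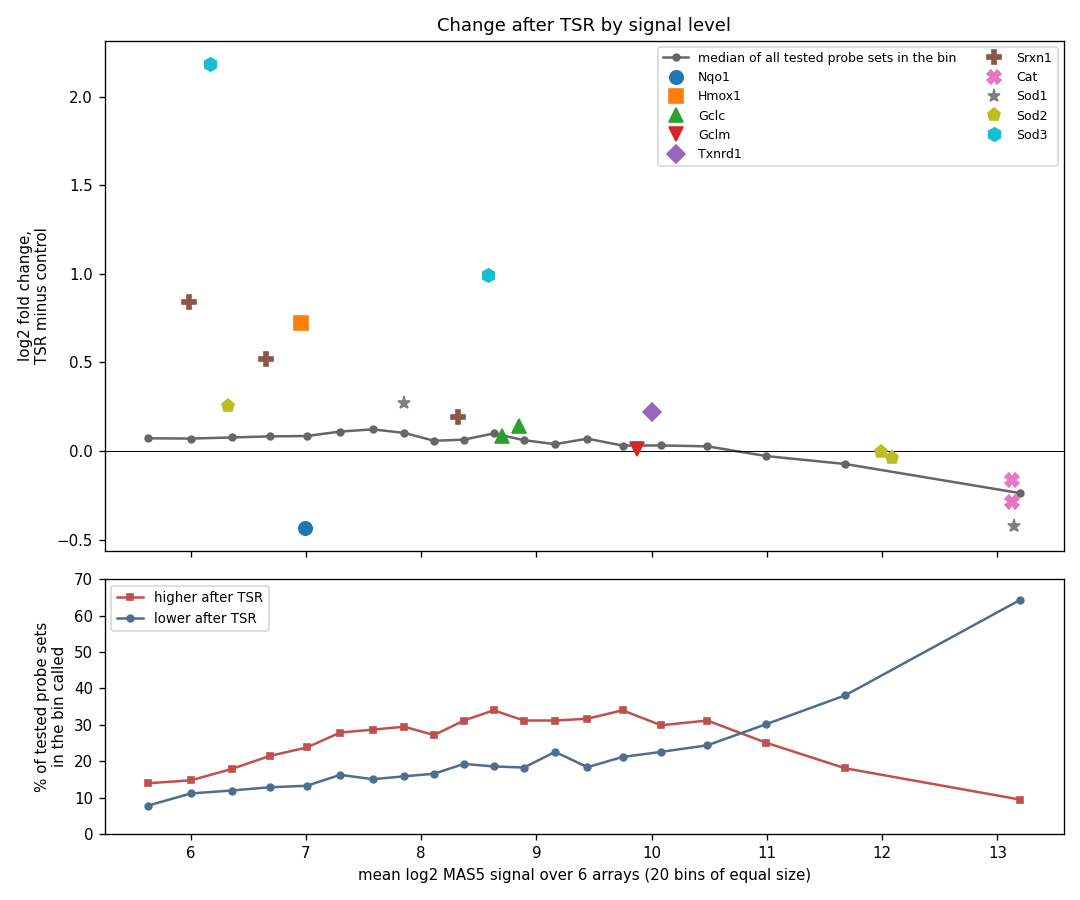
Top, log2 fold change (TSR minus control) of the 18 tested probe sets of the antioxidant genes against their mean log2 MAS5 signal over the 6 arrays, with the median of all tested probe sets in each of 20 bins (grey line). Bottom, the percent of all tested probe sets in each bin that passed as higher (squares) or lower (circles) after TSR on the deposited scale. Falls outnumbered rises in the brightest bins, where the Cat probe sets (-0.29 and -0.16) stood beside a bin median of -0.24.

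Among the genes that NRF2 is known to induce, Hmox1 and Nqo1 moved in opposite directions. Hmox1 breaks heme down to biliverdin, iron and carbon monoxide. Its signals were 172, 153 and 154 in TSR arrays, against 104, 78.0 and 113 in control arrays, and the groups did not overlap. The means were 160.0 ± 10.5 after TSR and 98.2 ± 18.1 in control (SD, n = 3 each), a ratio of 1.63, with a log2 fold change of 0.72 and a standard error of 0.15 (limma, adjusted p = 0.0046). Nqo1 reduces quinones in a single step that avoids radical intermediates. Its signals were 115, 96.9 and 118 in TSR arrays, against 149, 143 and 152 in control arrays, with all TSR arrays lower. The means were 109.9 ± 11.4 after TSR and 148 ± 4.81 in control, a ratio of 0.743, and the log2 fold change was -0.43 with a standard error of 0.12 (limma, adjusted p = 0.015). The log2 fold changes differed by 1.15. All TSR arrays were higher for Hmox1 and lower for Nqo1, so the within-array differences could not overlap, and a test of them adds nothing. Both calls held after quantile normalization, at 0.62 for Hmox1 and -0.54 for Nqo1, and after median centring. Macrophages that take up heme are known for high Hmox1, and the macrophage markers were lower after TSR on the same arrays, as given above. Their part in the Hmox1 values was not tested.

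Glutathione is made from cysteine, glutamate and glycine, and its first and limiting step is run by a catalytic subunit, Gclc, and a modifier subunit, Gclm. Neither gene passed the test. By 1424296_at the Gclc signals were 489, 484 and 479 in TSR arrays, against 451, 461 and 407 in control arrays. These groups did not overlap, yet the difference was small, with a log2 fold change of 0.14 and an interval of -0.0070 to 0.29 (limma, adjusted p = 0.11). By 1455959_s_at they were 406, 447 and 433 in TSR arrays, against 402, 411 and 400.0 in control arrays (interval -0.057 to 0.23, adjusted p = 0.30). The Gclm signals were 937, 1026 and 873 in TSR arrays, against 915, 954 and 937 in control arrays. The TSR arrays lay on both sides of the control arrays, with a log2 fold change of 0.012 and an interval of -0.13 to 0.16 (adjusted p = 0.89). For both genes a change as large as that of Hmox1 lay outside the intervals.

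In the thioredoxin branch, Txnrd1 encodes the cytosolic thioredoxin reductase and Srxn1 the sulfiredoxin that reactivates over-oxidised peroxiredoxins. By the only tested probe set of Txnrd1 (1421529_a_at) the signals were 1116, 1094 and 1106 in TSR arrays, against 927, 1082 and 851 in control arrays, with control replicate 2 close to the TSR arrays. The ratio was 1.16 and the log2 fold change 0.22 with a standard error of 0.080 (limma, adjusted p = 0.049), and this call was kept in only 4 of 15 alternatives. It was lost after quantile normalization (adjusted p = 0.095), after median centring (0.30) and without any single array other than control replicate 2 (0.091 to 0.14), as well as in the methods' t-test on linear (0.16) and log2 signals (0.17), without the variance trend (0.10) and without a filter (0.088). Both further Txnrd1 probe sets lay below the filter, with signals of at most 20.1 in TSR arrays and at most 30.2 in control arrays, and were not tested.

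Srxn1 had 4 probe sets, of which 3 were tested. By 1425351_at the signals were 85.5, 74.4 and 95.8 in TSR arrays, against 63.6, 48.0 and 34.6 in control arrays, a ratio of 1.75. By 1451680_at they were 116, 118 and 128 in TSR arrays, against 65.5, 94.3 and 96.8 in control arrays, a ratio of 1.41. Both rose on the deposited scale, with log2 fold changes of 0.84 (standard error 0.23, adjusted p = 0.017) and 0.52 (standard error 0.17, adjusted p = 0.032, limma). By the brightest, 1426875_s_at, they were 334, 362 and 327 in TSR arrays, against 315, 312 and 272 in control arrays. All TSR arrays were again higher, but with a log2 fold change of 0.19 it did not pass (adjusted p = 0.092). The ending _s_at marks a probe set shared by more than 1 transcript. The call of 1451680_at was lost after quantile normalization (adjusted p = 0.088), after median centring (0.075) and without TSR replicate 1 (0.067), TSR replicate 2 (0.067), TSR replicate 3 (0.090) or control replicate 1 (0.074), and that of 1425351_at without TSR replicate 3 (0.057). In the methods' t-test neither passed, with adjusted p of 0.073 and 0.11 for 1451680_at and 0.063 and 0.085 for 1425351_at on linear and log2 signals, and without a filter 1451680_at did not pass (0.066). The untested 1419942_at had 25.7, 41.5 and 12.2 in TSR arrays, against 38.6, 11.2 and 70.6 in control arrays, a spread that shows no order.

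**Figure D3:**
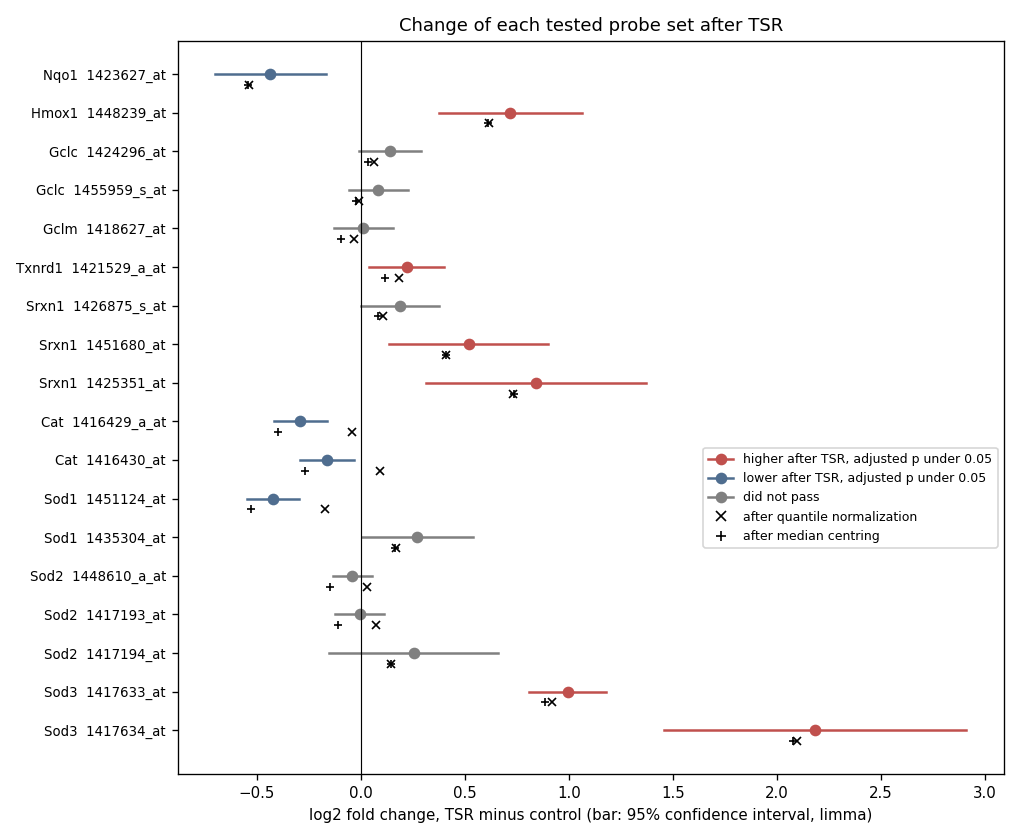
Log2 fold change (TSR minus control) of each of the 18 tested probe sets with its 95% confidence interval from limma, coloured by whether it passed an adjusted p of 0.05. Crosses give the value after quantile normalization and plus signs the value after median centring. Sod3 (0.99 and 2.18), Hmox1 (0.72) and Nqo1 (-0.43) stayed on their side of 0 under both, while the second Cat probe set (-0.16) moved to 0.091 after quantile normalization.

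NRF2 binds antioxidant response elements, whose core reads TGACNNNGC. The core, and the AP-1 site TGAGTCA that resembles it, were searched on both strands in RefSeq promoter windows of mouse build GRCm38.p6, from 250 bases before to 50 bases after a gene's start. Windows were found for 7 of the 10 genes, 9 windows in all. Hmox1, Gclc and Sod3 had no window, so their promoters were not searched. The core was in 4 of these 9, against 12.4% of 32851 windows, and the AP-1 site in 1, against 5.20%. No match overlapped another. The 4 windows with the core are shown because they precede genes that behaved differently after TSR. They are given 5′ to 3′ on the strand of the gene with the matches in capitals, where the core appears as its reverse complement.
Srxn1 (chr2:152105274-152105573, plus strand): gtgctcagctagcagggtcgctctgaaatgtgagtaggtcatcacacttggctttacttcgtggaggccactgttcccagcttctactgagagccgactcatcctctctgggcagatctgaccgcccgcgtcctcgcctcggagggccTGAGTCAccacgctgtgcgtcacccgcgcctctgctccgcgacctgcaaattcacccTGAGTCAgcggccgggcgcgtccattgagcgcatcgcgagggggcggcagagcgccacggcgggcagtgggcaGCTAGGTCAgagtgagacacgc
Txnrd1 (chr10:82858956-82859255, plus strand): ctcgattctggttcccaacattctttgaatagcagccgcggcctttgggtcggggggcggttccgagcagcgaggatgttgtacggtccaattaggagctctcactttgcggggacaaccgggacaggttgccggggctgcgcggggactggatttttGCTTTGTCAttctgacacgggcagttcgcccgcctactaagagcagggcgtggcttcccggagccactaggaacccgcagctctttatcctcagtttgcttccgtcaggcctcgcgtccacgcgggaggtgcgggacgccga
Gclm (chr3:122245307-122245606, plus strand): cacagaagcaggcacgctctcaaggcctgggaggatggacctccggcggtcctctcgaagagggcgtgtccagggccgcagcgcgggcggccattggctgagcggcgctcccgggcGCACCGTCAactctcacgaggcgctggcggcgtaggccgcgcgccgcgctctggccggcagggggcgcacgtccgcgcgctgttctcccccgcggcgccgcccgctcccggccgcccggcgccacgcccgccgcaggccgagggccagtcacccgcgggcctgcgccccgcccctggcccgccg
Sod1 (chr16:90220512-90220811, plus strand): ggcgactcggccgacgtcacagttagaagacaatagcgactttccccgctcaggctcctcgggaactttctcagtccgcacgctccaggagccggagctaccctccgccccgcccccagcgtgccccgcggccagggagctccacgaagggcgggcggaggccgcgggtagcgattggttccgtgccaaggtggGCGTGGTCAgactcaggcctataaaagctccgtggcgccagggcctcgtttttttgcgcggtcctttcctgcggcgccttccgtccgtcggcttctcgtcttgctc
The Srxn1 window holds the AP-1 letters at bases 149 to 155 and 206 to 212 and the core at bases 279 to 287, past the start. The AP-1 match at bases 206 to 212 is followed by gc, so that it differs from the core only in the G after TGA. In Txnrd1, in the second of its 3 windows, the core lies at bases 159 to 167, in Gclm at bases 117 to 125 and in Sod1 at bases 195 to 203. On the deposited scale Srxn1 was higher after TSR by 2 probe sets, Txnrd1 was higher with an adjusted p of 0.049 from limma, Gclm did not pass and Sod1 was lower by its bright probe set. The letters alone are a description of these windows.

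The regulators of NRF2 were measured on the same arrays. Of 11 tested genes of this list 4 were higher, 2 lower and 5 did not pass, or 2 rises and 2 falls after quantile normalization and 1 and 3 with median centring. Among all 8619 genes, each by its brightest probe set, 24.0% were higher and 23.0% lower. Bach1, the repressor of Hmox1, fell to 636 ± 13.8 after TSR, against 988 ± 38.3 in control (SD, n = 3 each, log2 fold change -0.63, limma adjusted p = 2.1e-05), while its dim second probe set did not pass (-0.25, adjusted p = 0.27), and its relative Bach2 was also lower (-0.58). Nfe2l2 was at 1731 ± 14.3 after TSR and 1487 ± 27.0 in control, a log2 fold change of 0.22 (limma adjusted p = 0.0022), which did not pass after median centring (0.082). Both of the 2 tested Keap1 probe sets were higher on the deposited scale. The brighter (0.16, limma adjusted p = 0.0499) passed in neither of the other scalings. The small Maf gene Maff (0.74, adjusted p = 0.037), whose protein pairs with NRF2, did not pass there either (0.086 and 0.064). Sqstm1, which encodes the autophagy adaptor p62 that binds KEAP1, was higher at 2696 ± 68.5 after TSR and 1965 ± 117 in control (0.46). Park7, the brightest of the list, which encodes the oxidation sensor DJ-1, was at -0.14 and did not pass (adjusted p = 0.087), but was lower after median centring (-0.25), and its second probe set passed as lower (-0.24).

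Other genes of thiol chemistry were tested by lists. Some list genes were not tested, among them Prdx1, which had no probe set of its own, and Slc7a11, which lay below the filter. Of 16 genes of glutathione synthesis and use, 5 were higher, 5 lower and 6 did not pass, or 4 rises and 2 falls after quantile normalization and 3 and 6 with median centring. The cystathionine enzymes Cbs (0.88) and Cth (0.46), which make cysteine from homocysteine, and the amino acid transporter subunit Slc3a2 (0.52) rose. The glutathione peroxidase gene Gpx8 fell (-0.56), as did the bright Gpx1 (-0.37), Gpx3 (-0.24) and Gpx4 (-0.28) on the deposited scale, although the last 3 did not pass after quantile normalization. Of 19 glutathione S-transferase genes, 9 were higher and 6 lower, or 7 and 2 after quantile normalization and 5 and 7 with median centring. Gstm6 (1.06), Gstm4 (0.63) and Gstm7 (0.44) rose, Gstt2 fell (-0.57), and the bright Mgst1 (-0.42) lost its call after quantile normalization. Of the 2 tested Gstm7 probe sets, the other did not pass. The Gstm genes are close paralogues, so that their probe sets may share signal. Of 16 genes of thioredoxins and peroxiredoxins, 3 were higher and 7 lower, with 4 and 7 after quantile normalization and 3 and 8 after median centring. Sesn2, a sestrin gene of the stress response, fell to 61.6 ± 7.61 after TSR, against 176 ± 31.9 in control (SD, n = 3 each, log2 fold change -1.51, limma adjusted p = 0.00011), by the brighter of its tested probe sets, and the other did not pass (0.26, adjusted p = 0.29). Txnip, the inhibitor of thioredoxin, fell to 4849 ± 125, against 8856 ± 431 in control (-0.87), and its dimmer probe set did not pass (0.18, adjusted p = 0.091). Sesn1 (-0.59) and thioredoxin itself, Txn1 (-0.42, with a dim second probe set at -0.10 that did not pass), were lower, and the glutaredoxin gene Glrx (0.72) was higher.

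Of 9 genes of NADPH supply, 5 were higher, 0 lower and 4 did not pass, and median centring gave 3 higher and 3 lower. G6pdx of this list had no probe set of its own and was not tested. The malic enzyme gene Me1 rose to 5592 ± 470 after TSR, against 3158 ± 116 in control (SD, n = 3 each, log2 fold change 0.82, limma adjusted p = 1.8e-05), followed by Pgd (0.35) and Idh2 (0.29). All 4 tested Pgd probe sets were higher, and the other 3 had 1.21, 0.59 and 1.09. The folate cycle gene Mthfd1 was higher on the deposited scale by 2 of its 3 tested probe sets. Its brightest (0.18, limma adjusted p = 0.048) passed in neither of the other scalings. Tkt, the brightest of the list, had -0.06 on the deposited scale and did not pass, but was higher after quantile normalization (0.28, adjusted p = 0.0056). Its other probe set (1451015_at) rose on the deposited scale, to 8550.4 ± 396 after TSR, against 4142 ± 149 in control (SD, n = 3 each, log2 fold change 1.05, limma adjusted p = 1.3e-06), so that the probe sets of Tkt did not move alike. Of 16 further NRF2 target genes, 5 were higher and 6 lower, with 5 and 5 after quantile normalization and 4 and 8 after median centring. Osgin1 (0.85), the aldehyde reductase gene Akr7a5 (0.50) and the heme transporter gene Slc48a1 (0.49) rose, and the aldehyde oxidase gene Aox1 (-0.57) fell. Akr1a1, the brightest, was lower on the deposited scale (-0.29) and at 0.047 after quantile normalization, and its 3 other probe sets did not pass (0.012, -0.043 and 0.072).

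Of 13 genes of heme and iron handling, 4 were higher and 2 lower, with 4 and 1 after quantile normalization and 2 and 3 after median centring. Hamp, the hepcidin gene, which the liver is known to express most, rose to 111 ± 11.7 after TSR, against 31.4 ± 3.0 in control (SD, n = 3 each, log2 fold change 1.81). Its control signals lay below the filter, which it passed only through its TSR signals. The transferrin receptor gene Tfrc rose (0.75) and Slc40a1, the ferroportin gene through which cells release iron, fell (-0.71), with a dim second probe set that did not pass (-0.057). Fth1, the ferritin heavy chain gene, was lower on the deposited scale (-0.22) and higher after quantile normalization (0.12, adjusted p = 0.026). Of 8 genes of metallothioneins and copper supply to SOD, 0 were higher and 3 lower (Mt2, Atox1 and Atp7a, between -0.19 and -0.17), with 1 and 2 after quantile normalization, where Mt2 did not pass (-0.10, adjusted p = 0.053), and 0 and 5 after median centring. A second Atox1 probe set did not pass (-0.031), and Ccs, the copper chaperone of SOD1, did not pass (0.16, adjusted p = 0.089, limma). The brightest, Mt1, was at -0.14 and did not pass, but was higher after quantile normalization (0.13) and lower after median centring (-0.25). Of 8 genes of superoxide and peroxide sources, 0 were higher and 4 lower, and the 4 were also lower after quantile normalization. The 4 were the NADPH oxidase subunit genes Cyba (-0.80), Ncf4 (-0.70) and Rac2 (-0.39) and Aox1 (-0.57), which also stands on the list of NRF2 targets. The NADPH oxidase genes Cybb (0.071, limma adjusted p = 0.84) and Nox4 (0.025) did not pass. Cybb was dim, and its interval was wide, from -0.51 to 0.65. The xanthine dehydrogenase gene Xdh did not pass (-0.063). In the same arrays 14 of 16 tested macrophage markers were lower, and their part in the NADPH oxidase values was not tested. Of 16 genes of peroxisomes, 6 were higher and 3 lower, with 7 and 3 after quantile normalization and 5 and 4 after median centring. The import genes Pex14 (0.55), Pex19 (0.48) and Pex5 (0.46) rose, and Ehhadh, of peroxisomal fatty acid oxidation, fell (-0.87), while the brightest, Hsd17b4 of the same pathway, did not pass (0.076).

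**Figure D4:**
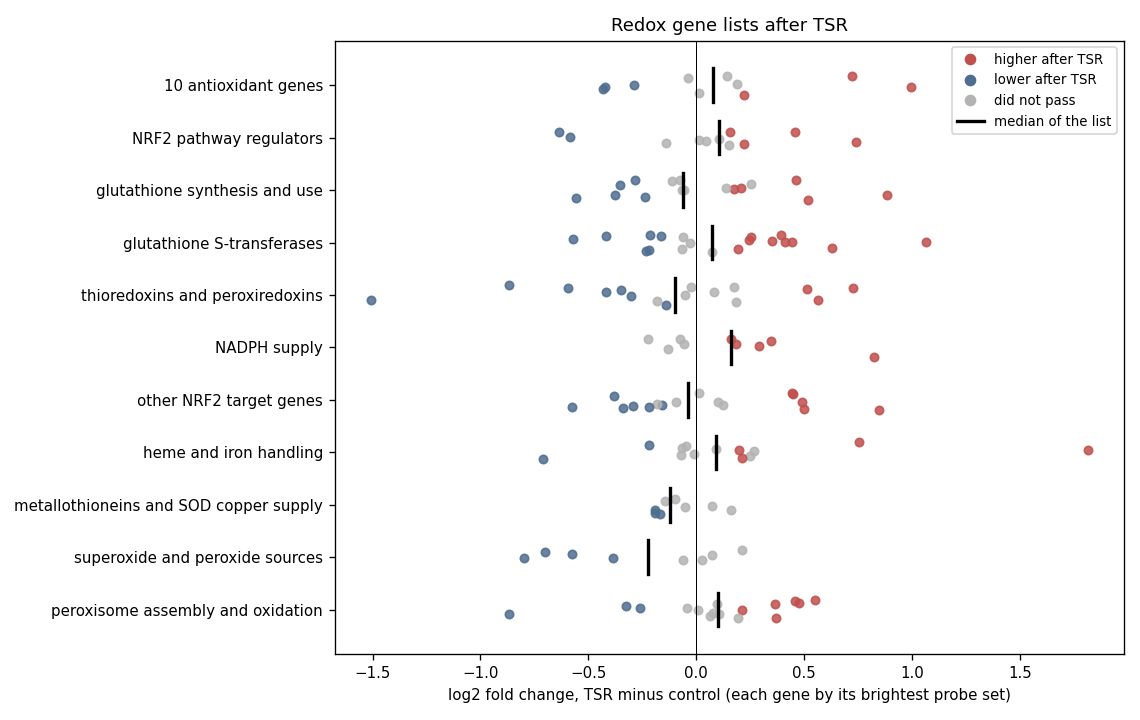
Log2 fold change (TSR minus control) of the genes of 10 redox lists and of the 10 antioxidant genes, each by its brightest probe set, on the deposited scale. Points are genes, coloured by whether they passed an adjusted p of 0.05 in limma, and black lines are the medians of the lists. In NADPH supply 0 of 9 genes were lower and in superoxide and peroxide sources 0 of 8 were higher, though 3 NADPH genes were lower after median centring.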

How the data were processed

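The authors summarised Affymetrix mouse arrays of epididymal WAT, 3 TSR and 3 control, with MAS5 in Expression Console (version not given in the sources used here). The deposited table holds MAS5 signal intensity on a linear scale, scaled by the authors to one target per array. It has 22690 probe sets, of which 20393 have 1 gene symbol, 691 several and 1606 none. The array's probe annotation gave the symbols, and the RefSeq gene table updated 0 of them.

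Signals were taken to log2, and 64 control probe sets and the 35% of the others with the lowest mean log2 signal (below 5.45) were left out, since expression calls were not used here. TSR was compared with control in limma 3.58.1 (R 4.3.3), with a trend of the variance on intensity, and Benjamini-Hochberg adjusted p-values were called at 0.05. Ratios are of mean signals. Differences within arrays were tested by exact permutation over the 6 arrays, whose small number limits precision. The script was tested on simulated data with known changes. It called 55 of 100 changes of 0.5 and 83 of 100 changes of 1 on the log2 scale, with 5 false calls. Changes of such sizes that did not pass may therefore have been missed.

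The members and the lists were chosen with earlier results of these data known. The text names all probe sets of the 10 genes, of each pathway list up to 4 genes with the largest change past the threshold and the brightest, of the hepatocyte and adipocyte marker lists the brightest, and Nfe2l2, Keap1 and Alb. Gpx1, Gpx3, Ccs, Cybb, Nox4, Pi16 and further probe sets of list genes were named after their values were seen. G6pdx, Prdx1 and Slc7a11 were named as untested genes. Alternatives were the methods' t-test on linear and on log2 signals, a variance without trend, 2 other scalings (median centring and quantile normalization), a filter of 50% and none, the replicate number as a block, a floor at each array's 25th percentile, leaving out each array and, for lists, averaging all probe sets per gene.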

Additional observations from a re-analysis of the deposited data

How the results depend on the processing

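Of the 10 called probe sets of the antioxidant genes, 5 kept call and direction in every alternative that tested them. These were both of Sod3, the bright one of Sod1, Hmox1 and Nqo1. The dimmer of Sod3 passed the filter only through its TSR signals. The count of higher probe sets, 6 in the main comparison, was 3 in the methods' t-test on linear signals, 3 in the methods' t-test on log2 signals, 2 with the lowest 50% left out, where the dim probe sets were no longer tested, and 3 to 6 with single arrays left out (3 without TSR replicate 3). The count of lower probe sets, 4 in the main comparison, was 2 after quantile normalization and 3 to 4 with single arrays left out. Among called probe sets of the 10 genes, 1 changed sign, the second of Cat, at 0.091 after quantile normalization (adjusted p = 0.25), and the cause was not tested. With the replicate number as a block the counts were 6 higher and 4 lower, with the same 10 probe sets. Same-numbered arrays deviated together with r = 0.015, 0.19 and 0.17. TSR replicates 2 and 3 correlated best with the control of their own number and TSR replicate 1 with control replicate 2, so the numbers were not taken as pairs. Of 126 list counts under the other scalings and with probe sets averaged per gene, 18 moved by over 1.5 times.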
